A study of Mus musculus with 112 samples.

Results

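The genes described here encode nuclear subunits of oxidative phosphorylation, the mitochondrial system that makes most of the ATP of the brain, together with some of the factors that assemble it. They were all genes with a symbol beginning Nduf, Uqcr, Sdha to Sdhd, Cox4 to Cox8 or Atp5 and a probe set that names no other gene. This gave 93 of the 19938 genes tested. Cox7c and Ndufb4 are missing, since their probe sets also name another gene. Of the 93, 34 are subunits of complex I, 4 of complex II, 8 of complex III, 10 of complex IV and 17 of complex V. A further 11 are assembly factors of complexes I and II. The other 9, called isoforms here, are isoforms or relatives of complex IV subunits, mostly better known from other tissues. Among them is Cox7a2l, a supercomplex assembly factor. The mRNA of the 93 genes was measured as log2 signal in cerebral cortex, with 1 array for each male mouse. A gene with several probe sets was represented by the one with the highest mean signal, and the mean signals of the 93 genes over the 112 arrays lay between 5.32 and 12.8.

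Mice of 6 inbred strains (C3H/HeJ, C57BL6/J, DBA/2J, Balbc/J, 129S1/SvImJ and CBA/J) and of B6C3F1/J, a hybrid bred from C57BL6/J crossed with C3H/HeJ, ate a control diet or a calorie restricted (CR) diet from 8 to 22 weeks of age, with 8 mice in each of the 14 groups. All mice were housed singly, had eaten 84 kcal per week before the diets began, and were killed after an overnight fast. By the study's methods the food differed by strain: Balbc/J mice of both diets had more, the ration of the CR groups of C57BL6/J and 129S1/SvImJ was lowered further partway, and the hybrid, C3H/HeJ, CBA/J and DBA/2J were fed alike. Control mice of the hybrid and of both its parents were fed the same. CR therefore does not mean the same ration in every strain.

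Oxidative phosphorylation passes electrons from NADH (complex I) and succinate (complex II) through ubiquinone to complex III, cytochrome c and complex IV, which reduces oxygen. Complexes I, III and IV pump protons out of the mitochondrial matrix, and complex V, the ATP synthase, makes ATP as the protons return. Most subunits are encoded in the nucleus and the rest in mitochondrial DNA, and in the cortex the pathway is used heavily at synapses. Subunits of the mitochondrial genome are not among the genes described.

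The values of 4 arrays bear on several comparisons. Replicate 6 of the C57BL6/J control mice and replicate 8 of the hybrid control mice were rich in genes of the cerebellum, with a median over 10 cerebellar genes 3.80 and 3.96 log2 units above those genes' means, and had medians of -2.74 and -2.51 over 9 markers of cortical excitatory neurons. These 2 arrays therefore go against the tissue label. Replicate 8 of DBA/2J control and replicate 6 of CBA/J CR were milder, at 1.58 and 0.95, and the next highest array was at 0.26. All 4 arrays were kept, and values without them are given where they alter a result.

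The promoters of these genes were searched for 3 motifs, which were more frequent than among all genes but absent from most of these promoters. RefSeq (GRCm38.p6) gave a window from 250 bases before to 50 after the annotated start site for 77 of the 93 genes. The motif GCATGCGC of NRF1, a transcription factor known for driving nuclear genes of respiration, was found on either strand in 12 of the 77 (15.6%) against 3.05% of all 27025 genes with such a window. The ETS core CCGGAAG, which the GABPA factor (also called NRF2) binds, was in 21 (27.3%) against 9.93%, and AAGATGGCG, a motif of YY1, in 7 (9.09%) against 1.64%. At least 1 of the 3 was present in 34 promoters (44.2%) against 13.6% of all. A match is a string of letters and not a measured binding site. The comparison genes were not matched to the 77 for signal or base composition, so the excess cannot be called particular to this pathway. Below are the promoters of the genes with the smallest p in the 4 comparisons that follow: Sdhaf1 for CR across strains, Cox5b for differences among strains, Atp5md for the hybrid and Sdha for its parents. Each runs 5′ to 3′ over 280 bases and ends 30 bases after the start site, with motif matches in capitals.
Sdhaf1, chr7:30322346-30322625, minus strand: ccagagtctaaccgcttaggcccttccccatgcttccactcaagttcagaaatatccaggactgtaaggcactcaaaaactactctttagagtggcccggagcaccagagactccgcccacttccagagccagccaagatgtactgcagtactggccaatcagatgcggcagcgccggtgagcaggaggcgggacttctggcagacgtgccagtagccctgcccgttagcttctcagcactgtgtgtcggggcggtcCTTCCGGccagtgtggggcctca
Cox5b, chr1:36691237-36691516, plus strand: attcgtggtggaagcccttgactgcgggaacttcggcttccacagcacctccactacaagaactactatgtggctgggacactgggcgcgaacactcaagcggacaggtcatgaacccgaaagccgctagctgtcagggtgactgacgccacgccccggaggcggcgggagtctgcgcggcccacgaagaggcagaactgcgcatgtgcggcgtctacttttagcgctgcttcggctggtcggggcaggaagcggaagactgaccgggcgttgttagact
Atp5md, chr19:47090618-47090897, minus strand: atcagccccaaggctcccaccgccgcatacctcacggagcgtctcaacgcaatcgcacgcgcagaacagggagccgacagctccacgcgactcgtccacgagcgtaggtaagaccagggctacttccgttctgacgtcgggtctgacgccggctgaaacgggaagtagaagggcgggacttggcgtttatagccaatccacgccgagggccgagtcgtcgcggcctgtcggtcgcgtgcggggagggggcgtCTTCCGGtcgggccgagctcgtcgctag
Sdha, chr13:74350211-74350490, minus strand: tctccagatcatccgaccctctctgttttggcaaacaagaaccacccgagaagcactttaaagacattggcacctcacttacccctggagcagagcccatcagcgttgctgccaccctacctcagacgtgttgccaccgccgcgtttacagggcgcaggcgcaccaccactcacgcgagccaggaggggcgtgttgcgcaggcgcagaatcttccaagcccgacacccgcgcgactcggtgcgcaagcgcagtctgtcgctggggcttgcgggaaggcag
The Sdhaf1 and Atp5md windows each hold 1 ETS core, read on the opposite strand, just after the start site, and those of Cox5b and Sdha hold none of the 3 motifs as spelled.

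CR changed few of the 93 genes. In the comparison over all strains, where the 7 differences between CR and control mice were averaged and tested with limma, 1 gene was higher and 2 were lower at an adjusted p under 0.05, against backgrounds of 1.17% of all genes higher and 1.17% lower. The 3 genes were Uqcrb, a small subunit of complex III near the ubiquinone site, which rose, and Uqcrh, the hinge protein of complex III, and Sdhaf1, an assembly factor of complex II, which fell. No other gene of complex I, II, III, IV or V passed. The median difference of the 93 genes was -0.00044 log2 units, beside 0.00054 over all genes, with 45 genes above 0 and 48 below, and 17 had an unadjusted p under 0.05 against 2854 of all 19938.

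Uqcrb rose by 0.086 ± 0.024 log2 units (SE, n = 8 per group), or 6.17% (95% interval 2.76% to 9.70%), with an adjusted p of 0.0287, and was higher in 7 of 7 strains. The largest of these differences was in CBA/J, where control mice had signals from 10.82 to 11.16 (median 11.03) and CR mice from 11.01 to 11.37 (median 11.19). The smallest was in C57BL6/J, with control signals from 11.25 to 11.55 (median 11.36) and CR signals from 11.18 to 11.62 (median 11.40). In the hybrid the difference was 0.023, and its control replicate 1, at 10.59, lay far below the next array of that group, at 11.04. Whether the hybrid stays among the 7 strains without that array was not tested. The diets overlapped in every strain, so the difference is one of means and not of separate ranges. All 3 probe sets of Uqcrb were higher, by 0.081 to 0.086.

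Sdhaf1 fell by 0.072 ± 0.019 (-4.86%, 95% interval -7.33% to -2.33%, adjusted p = 0.0210) and was lower in 6 of 7 strains. In the hybrid, control signals ran from 7.79 to 8.28 (median 7.93) and CR signals from 7.74 to 7.95 (median 7.80), a difference of -0.13 that was -0.090 without control replicate 8, the highest array and one rich in cerebellar genes. In 129S1/SvImJ and C57BL6/J the difference was -0.12. In CBA/J, the exception, they ran from 7.94 to 8.14 (median 8.03) and from 7.92 to 8.19 (median 8.07). Uqcrh fell by 0.066 ± 0.019 (-4.46%, 95% interval -6.95% to -1.90%, adjusted p = 0.0433), also in 6 of 7 strains, with C57BL6/J the exception. Its control signals in the hybrid ran from 10.04 to 10.50 (median 10.10), and its CR signals from 9.74 to 10.10 (median 10.03). The highest of these control signals belonged to replicate 8, rich in cerebellar genes, and without that array the difference across strains was -0.059 with an adjusted p of 0.0597. With an index of array quality as a covariate (the interquartile range of relative log expression), neither gene passed (Sdhaf1 -0.060, adjusted p = 0.0718, and Uqcrh -0.063, adjusted p = 0.0694), whereas Uqcrb did (0.085, adjusted p = 0.0434). As in the case of Uqcrb, the diets overlapped for both genes in every strain.

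The other genes with the smallest p in each direction did not pass. On the higher side these were Ndufaf1 (0.065 log2 units), Ndufc1 (0.059), Ndufb3 (0.057), Ndufs7 (0.044) and Sdha (0.027), and on the lower side Ndufb8 (-0.068), Ndufa7 (-0.062), Sdhc (-0.052) and Cox7b (-0.047). The precision was enough to bound the mean effect over strains: for each of the 93 genes, the 95% interval lay within a change of 10% in either direction. Such bounds were not particular to these genes, since 99.3% of all genes lay within 20%, the only bound counted over all genes. Effects in single strains were less closely bounded, with a median SE of 0.052 beside 0.020 across strains. Without C57BL6/J control replicate 6, Ndufs7 and Ndufb8 were called as well (5 genes), and without both arrays rich in cerebellar genes, Ndufs7, Ndufb8, Cox7b and Atp5j2 (7 genes). Leaving out the strain 129S1/SvImJ or DBA/2J left 0 genes called, leaving out CBA/J left Sdhaf1 and leaving out the hybrid left Uqcrb.

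**Figure D1:**
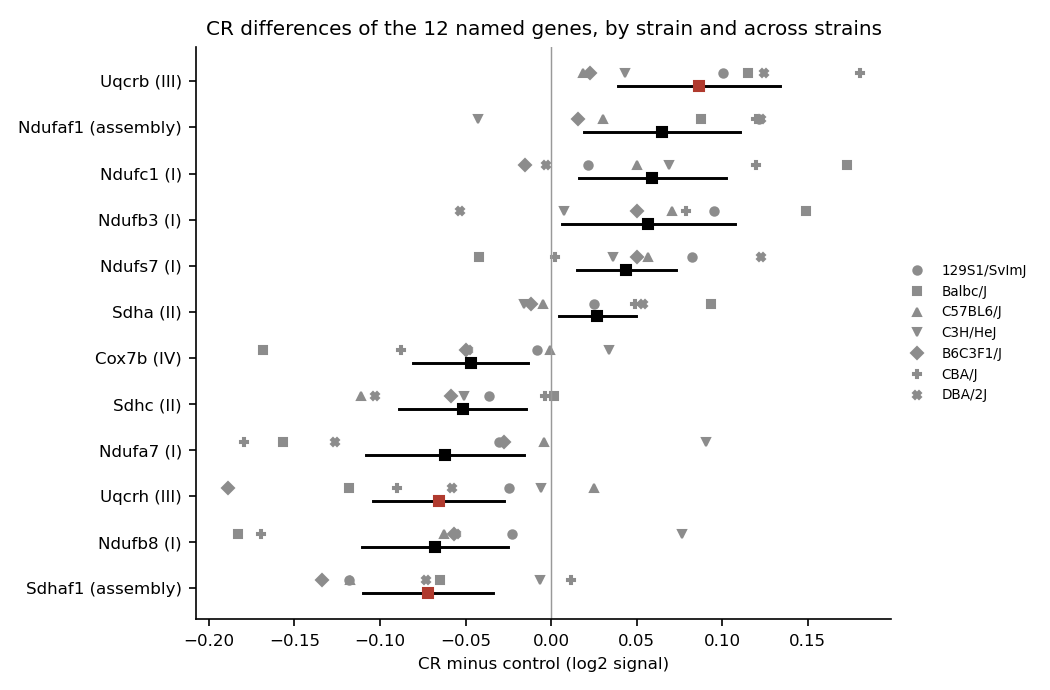
Differences between CR and control (x axis, log2 signal) for the 12 genes with the smallest p, 6 in each direction. Grey symbols are the 7 strains, squares the mean over strains with its 95% interval, and red squares the 3 genes past the adjusted threshold. Uqcrb is the 1 gene of the 12 with all strains on the same side of 0, with the low hybrid control replicate 1 kept.

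Within single strains no gene of the 93 was called. The background was as thin: 0.00502% of all genes in 129S1/SvImJ, 0.0853% in C57BL6/J, 0.1% in CBA/J, and 0% in Balbc/J, 0% in C3H/HeJ, 0% in DBA/2J and 0% in the hybrid. At an unadjusted p under 0.05 in limma, 12 of the 93 genes passed in 129S1/SvImJ, 25 in Balbc/J, 8 in C57BL6/J, 4 in C3H/HeJ, 17 in CBA/J, 7 in DBA/2J and 15 in the hybrid. Over all 19938 genes, 1244, 1326, 2121, 527, 1569, 1128 and 1521 passed in the same order. The methods' t-test on linear signal passed 3, 9, 0, 1, 5, 1 and 0 of them at its own unadjusted threshold, in that order, beside 1.75%, 1.92%, 2.01%, 0.582%, 3.65%, 1.7% and 0.582% of all genes, and 0 of the 93 after Benjamini-Hochberg adjustment. The median difference was between -0.028 in the hybrid, where 73 of 93 genes were lower in CR mice, and 0.020 in 129S1/SvImJ. No share over all genes is given for the count of 73.

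The gene with the smallest p differed from strain to strain. It was Ndufb6, a membrane-arm subunit of complex I, in Balbc/J, where control signals ran from 10.57 to 11.25 (median 11.11) and CR signals from 11.18 to 11.42 (median 11.26). This was a difference of 0.28 ± 0.066 (adjusted p = 0.163). In C3H/HeJ it was Atp5e, the epsilon subunit of the ATP synthase (7.48 to 7.85 in control, 7.75 to 8.20 in CR mice, a difference of 0.21 ± 0.056, adjusted p = 0.934), and in the hybrid it was Uqcrh (-0.19 ± 0.051, adjusted p = 0.358). The others were Ndufa13 in 129S1/SvImJ (0.11), Ndufa3 in C57BL6/J (0.13), Ndufb8 in CBA/J (-0.17) and Ndufs7 in DBA/2J (0.12). The overlap of CR with control signals was small in Balbc/J for Ndufb6 and wider for Atp5e. Ndufa3 reached 0.15 with an adjusted p of 0.0434 when C57BL6/J control replicate 6 was left out. The difference of Uqcrh in the hybrid was -0.14 without hybrid control replicate 8, rich in cerebellar genes.

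Whether CR acted differently among strains was asked by the strain by diet interaction. None of the 93 genes passed (background 0.0401%), and 14 had an unadjusted p under 0.05 in limma's moderated F test, against 1219 of all genes. Ndufb6 came first (F = 3.70, adjusted p = 0.475), then Atp5e (F = 3.41, adjusted p = 0.569) and Uqcr11, a small subunit of complex III (F = 2.63, adjusted p = 0.724). The CR difference of Uqcr11 lay between -0.23 in Balbc/J and 0.38 in C3H/HeJ, but the SD of its signal within a group reached 0.39.

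Strain moved these genes far more than diet did. Among control mice 89 of 93 genes (95.7%) differed between strains, against a background of 65.4% of all genes, and among CR mice 85 (91.4%) against 56.8%. Every subunit of complexes II to V among the 93 passed in control mice. The 4 genes that did not were Ndufa12 of complex I, the assembly factor Sdhaf3 and the isoforms Cox4i2 and Cox7a1. The range between the highest and the lowest of the 7 control means had a median of 0.37 log2 units over the 93 genes, 0.27 over all genes and 0.31 over genes with a mean signal of at least 9. It was over 0.5 for 22 genes and over 1 for 2. The lowest strain was the same in both diets for 73 genes and the highest for 67, counts given without a share over all genes. Probes were designed on a reference genome, so a sequence difference between strains can change the signal of a probe set without a change in mRNA, and this was not tested.

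**Figure D2:**
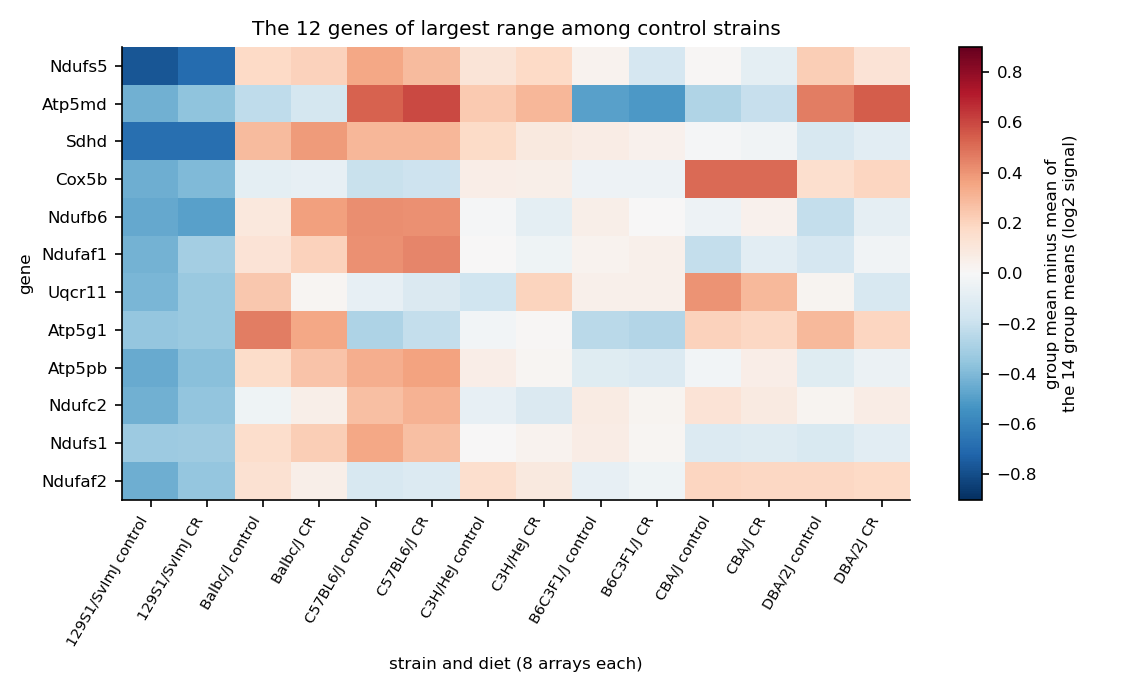
Group means of the 12 genes with the largest range among control strains, drawn as the difference from the mean of the 14 groups (log2 signal, blue lower and red higher), with strain and diet on the x axis. Neighbouring columns of 1 strain are alike, and the 129S1/SvImJ columns are blue in every row.

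The largest range was that of Ndufs5, an accessory subunit of the membrane arm of complex I. Its signals in 129S1/SvImJ ran from 7.08 to 7.68 (median 7.40) in control and from 7.13 to 7.70 (median 7.51) in CR mice, and in C57BL6/J, the highest strain, from 8.33 to 8.74 (median 8.51) and from 8.32 to 8.60 (median 8.46). The means of these 2 strains differed 2.17-fold in control and 1.98-fold in CR mice. The 16 arrays of 129S1/SvImJ lay below all other arrays, the lowest of which was a CBA/J CR mouse at 7.79. A further probe set, left out here, pairs Ndufs5 with a pseudogene, and reads of such copies cannot be told apart by these probes.

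Sdhd, a membrane anchor of complex II, split the strains in the same manner. Its signals in 129S1/SvImJ ran from 8.74 to 9.03 (median 8.92) in control and from 8.74 to 9.04 (median 8.92) in CR mice. The next strain, DBA/2J, ran from 9.34 to 9.63 (median 9.42) and from 9.38 to 9.79 (median 9.47), and C57BL6/J from 9.66 to 10.01 (median 9.96) and from 9.74 to 9.99 (median 9.89). No array of 129S1/SvImJ reached the range of another strain. The 1.96-fold range in control mice had an adjusted p of 1.1e-36.

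Cox5b, the zinc-binding subunit of complex IV, was separated at both ends. In CBA/J, control signals ran from 12.33 to 12.48 (median 12.38) and CR signals from 12.30 to 12.46 (median 12.41), above every array of the other strains. In 129S1/SvImJ they ran from 11.36 to 11.59 (median 11.44) and from 11.38 to 11.61 (median 11.50). C57BL6/J came next, at 11.57 to 11.78 (median 11.69) and 11.58 to 11.76 (median 11.73). The ranges of 129S1/SvImJ and C57BL6/J touch, whereas CBA/J stands clear. The hybrid, at 11.78 to 11.93 (median 11.83) in control mice, lay between its parents C57BL6/J and C3H/HeJ (11.79 to 12.13, median 11.94), as a mean of 11.84 between 11.68 and 11.95. A further probe set of Cox5b gave a range of 0.91 beside 0.95.

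Other genes had ranges of 0.63 to 0.88. Ndufb6, Ndufc2 and Ndufs1 of complex I, the assembly factor Ndufaf1 and Atp5pb, the b subunit of the peripheral stalk of ATP synthase, were highest in C57BL6/J. Atp5g1, 1 of 3 genes for the c subunit of the rotor ring, was highest in Balbc/J (11.62 to 11.97, median 11.80, in control mice), and Uqcr11 and the assembly factor Ndufaf2 were highest in CBA/J. All 8 were lowest in 129S1/SvImJ in control mice. Further probe sets gave smaller ranges for Atp5pb (0.49 beside 0.78), Uqcr11 (0.60 beside 0.81) and Atp5g1 (0.69 beside 0.81). The remaining c subunit genes were less spread, with Atp5g2 differing by at most 0.28 and Atp5g3 by at most 0.29 among control strains.

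The isoforms behaved apart from the common subunits of complex IV, but many of them were dim. Cox7b2 (mean signal 5.32), Cox8b (6.55), Cox8c (6.56), Ndufa4l2 (6.68), Cox6b2 (6.72), Cox7a1 (6.93) and Cox4i2 (7.37) lay below the median gene (7.53). The common subunits of complex IV lay between 9.63 and 12.7. How far low signal hides differences of these isoforms, here and below, was not tested. Cox6a2, Cox7a1 and Cox8b, known from heart and muscle, had group means from 8.14 to 8.52, from 6.82 to 7.04 and from 6.38 to 6.67, and the hypoxia-induced Ndufa4l2 from 6.54 to 6.87. Cox4i2, an isoform of lung and pericytes, kept to 7.32 to 7.43 and differed between strains in neither diet (adjusted p = 0.351 in control mice). Its control means differed by 0.11 at most. In CR mice 8 of the 93 genes did not differ past the threshold between strains, and 6 of them were in this group: Cox4i2, Cox6b2, Cox7a1, Cox8b, Cox8c and Ndufa4l2, beside Ndufa5 and Sdhaf4.

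129S1/SvImJ had the lowest mean of the 7 strains for 57 of 93 genes in control and 52 in CR mice, counts given without a share over all genes. This strain was therefore compared with the mean of the other strains, a comparison chosen after these values had been seen. In control mice 65 genes were lower (background 23.2%) and 7 higher (background 19.1%). In CR mice 60 were lower (background 20.3%) and 4 higher (background 14.2%), and 59 were lower in both diets. The median difference was -0.20 log2 units in control and -0.15 in CR mice, beside 0.021 and 0.012 over all genes and -0.073 and -0.068 over genes with a mean signal of at least 9. Centring each array on those brighter genes brought it to -0.13 and -0.095, and cyclic loess to -0.14 and -0.10. By complex, 26 of 34 subunits of complex I were lower in control mice, 3 of 4 of complex II, 6 of 8 of complex III, 9 of 10 of complex IV and 13 of 17 of complex V, and 23, 3, 6, 9 and 13 in CR mice. None of the 9 isoforms was lower in either diet.

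The largest differences of 129S1/SvImJ were those of Ndufs5 (-0.92 ± 0.060 in control, -0.79 ± 0.060 in CR mice), Sdhd (-0.79 ± 0.038 in both) and Cox5b (-0.51 ± 0.029 and -0.47 ± 0.029). Genes that were higher there in both diets were Ndufs7, the iron-sulphur subunit that hands electrons to ubiquinone (0.18 and 0.23), Ndufc1 (0.18 and 0.13), Sdhc, the partner of Sdhd in the membrane anchor (0.13 and 0.15), and the testis isoform Cox7b2 (0.21 and 0.21). Sdhaf1, Cox8c and Cox6b2 were called higher in control mice alone, and whether diet altered those differences was not tested. Both directions thus occurred within complexes I and II.

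Other gene lists moved in 129S1/SvImJ too. In control mice 10 of 12 genes of the TCA cycle, which feeds NADH and succinate to the chain, were lower. So were 5 of 6 astrocyte markers and 5 of 5 markers of endothelium, and in CR mice the counts were 11, 4 and 5. Over all genes, 23.2% were lower and 19.1% higher in control mice, and 20.3% and 14.2% in CR mice. The median over the astrocyte markers lay between -0.38 and -0.061 in the 129S1/SvImJ arrays and between -0.17 and 0.21 in those of the other strains, and that over the endothelium markers between -0.44 and -0.072 and between -0.29 and 0.36. Of 6 microglia markers 2 were lower in control and 3 in CR mice, and the group medians over them were -0.13 and -0.090, beside -0.091 to 0.16 in the other groups. Of 9 excitatory neuron markers none was lower and 1 higher in control mice, and 1 was higher and 1 lower in CR mice. The part of these cell types in the difference was not tested. In whole tissue, fewer cells of a type and less RNA per cell cannot be told apart.

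**Figure D3:**
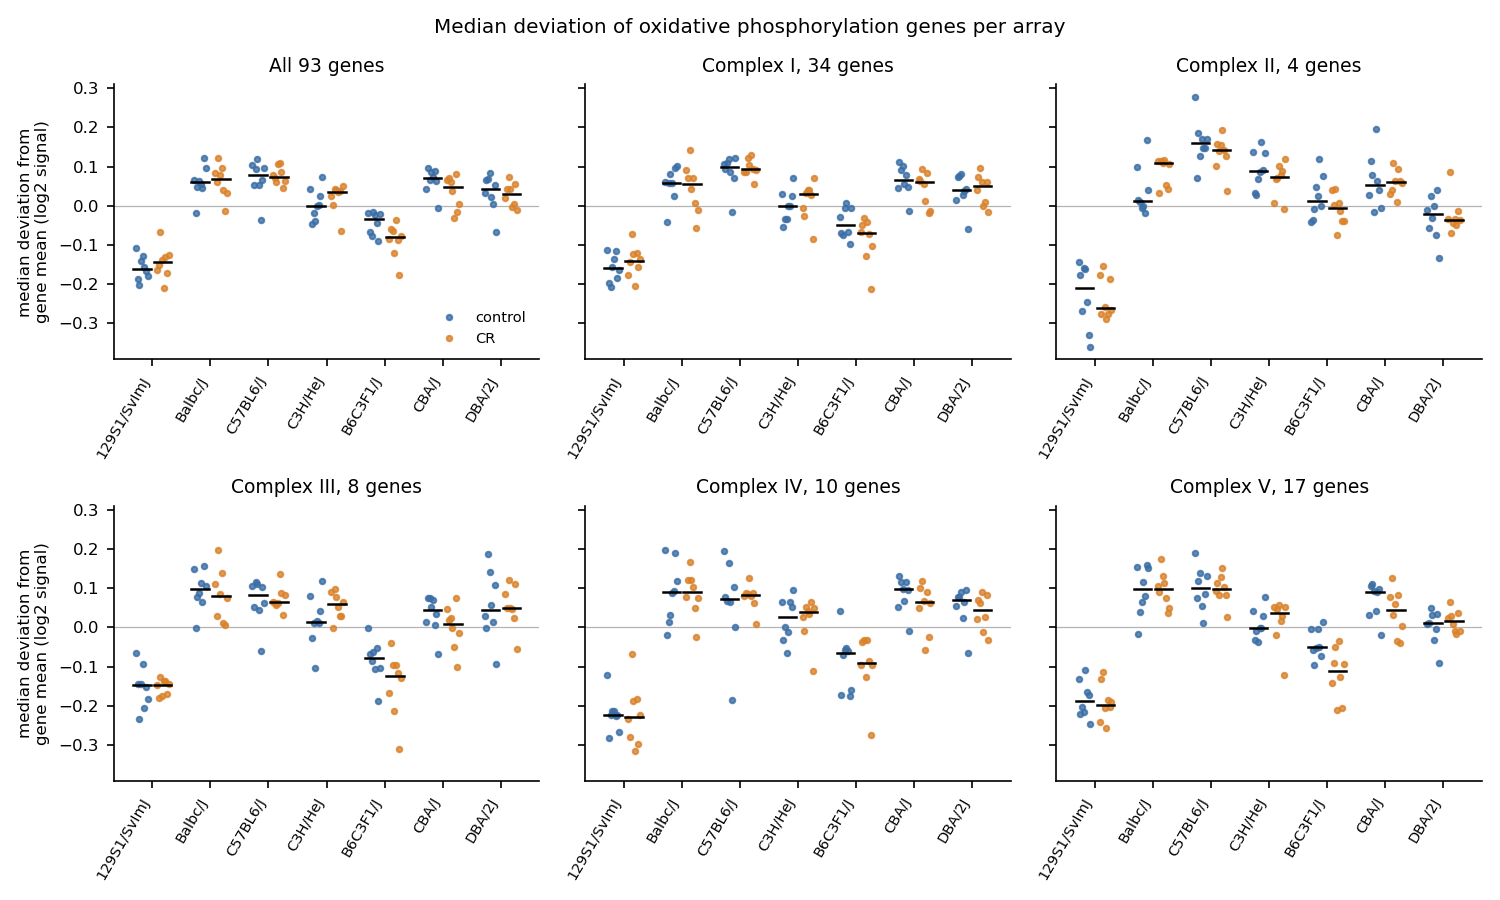
Median over the genes of a set of each array's deviation from the gene's mean over the 112 arrays (y axis, log2 signal), by strain and diet on the x axis, for all 93 genes and for complexes I to V. Points are mice, blue control and orange CR, and bars are group medians. The medians of 129S1/SvImJ are lowest in every panel, and those of the hybrid B6C3F1/J lie below those of both its parents. Hybrid control mice overlap both parents in every panel. Hybrid CR mice overlap C3H/HeJ except for complex III, and overlap C57BL6/J for complex II alone.

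The same order showed in each array as a whole. The median deviation of the 93 genes from their means ran from -0.20 to -0.11 (median -0.16) in 129S1/SvImJ control mice and from -0.21 to -0.068 (median -0.14) in CR mice. In the hybrid it ran from -0.090 to -0.015 (median -0.034) and from -0.18 to -0.036 (median -0.081). The medians of the remaining 10 groups lay between 0.00074 in C3H/HeJ control and 0.080 in C57BL6/J control mice. By complex, the control medians of 129S1/SvImJ were -0.16 for complex I, -0.21 for complex II, -0.15 for complex III, -0.22 for complex IV and -0.19 for complex V.

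The hybrid gave the question of how these genes behave when 2 of the inbred genomes are combined. The parents themselves differed: in control mice 30 genes were higher in C57BL6/J than in C3H/HeJ (background 10.6%) and 11 lower (background 12.1%), and in CR mice 30 were higher (background 7.86%) and 9 lower (background 9.31%), with 32 called in the same direction in both diets. The largest differences in control mice were Ndufb10 (0.48), Ndufb6 (0.43), Ndufaf1 (0.41) and Ndufaf6 (0.38) on the C57BL6/J side and Sdhc (-0.42), Ndufaf2 (-0.30), Cox5b (-0.26) and Ndufs7 (-0.26) on the C3H/HeJ side. The smallest p was that of Sdha, the flavoprotein of complex II that oxidises succinate. Its control signals ran from 11.36 to 11.47 (median 11.45) in C57BL6/J and from 11.02 to 11.19 (median 11.12) in C3H/HeJ, with no overlap. In the hybrid they ran from 11.07 to 11.18 (median 11.12), inside the range of C3H/HeJ, 0.31 ± 0.030 below C57BL6/J and 0.0099 from C3H/HeJ (95% interval -0.049 to 0.069).

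Against the mean of its parents, the hybrid was lower for 35 of 93 genes in control mice (37.6%, background 9.77%) and higher for 1 (background 6.39%). In CR mice it was lower for 52 (55.9%, background 10.5%) and higher for 2 (background 7.46%). All 35 genes of the control mice were also lower in the CR mice, which are other animals. The median difference was -0.092 log2 units in control and -0.13 in CR mice, beside 0.015 and 0.018 over all genes and -0.042 and -0.027 over genes with a mean signal of at least 9. Centring each array on genes of at least 9 brought the median to -0.059 and -0.11, and cyclic loess brought it to -0.064 and -0.11.

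The decrease ran through all 5 complexes. In control mice it took in 13 of 34 subunits of complex I, 2 of 4 of complex II, 5 of 8 of complex III, 4 of 10 of complex IV, 7 of 17 of complex V and 4 of 11 assembly factors, and in CR mice 19, 2, 7, 7, 11 and 6. None of the 9 isoforms was lower in either diet. The genes that were higher were Sdhc in both diets (0.12 and 0.14), a gene in which the parents differed widely, and Atp5d, the delta subunit of the central stalk of ATP synthase, in CR mice (0.083). In control mice Sdhc was close to the threshold in limma (adjusted p = 0.0455). It was not called there without the 2 arrays rich in cerebellar genes.

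**Figure D4:**
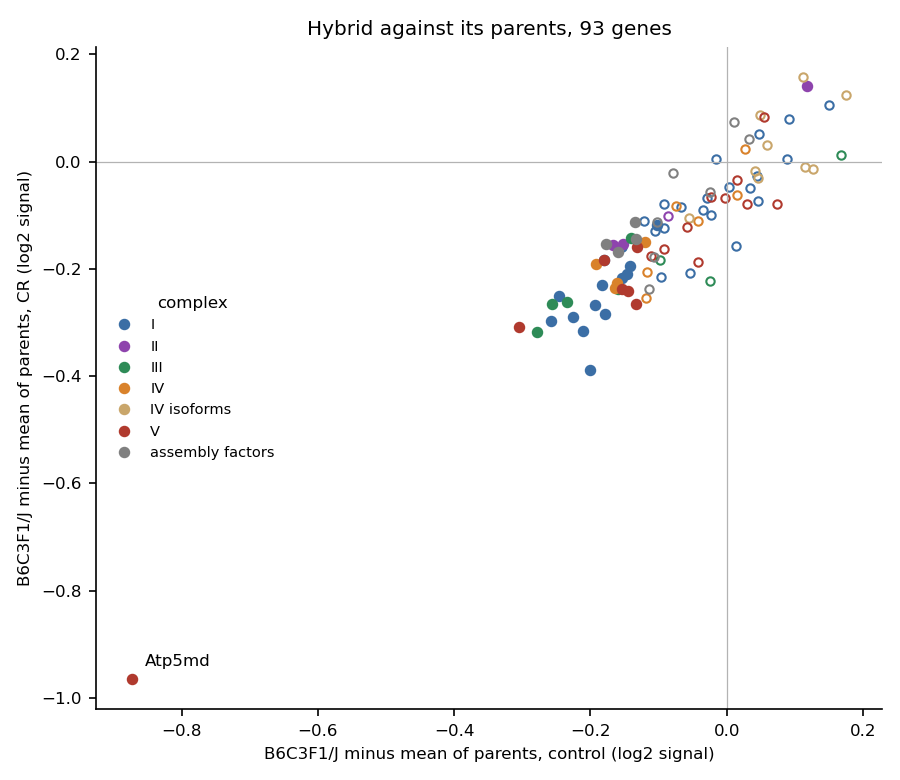
Difference of the hybrid B6C3F1/J from the mean of its parents in control (x axis) and CR mice (y axis), both in log2 signal, for the 93 genes, coloured by complex. Filled points were called in both diets. 65 of the points lie below 0 on both axes, and Atp5md lies far from the rest.

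Atp5md, which encodes DAPIT, a small membrane subunit of the ATP synthase, differed most. Its signals in the hybrid ran from 10.23 to 10.65 (median 10.43) in control and from 10.19 to 10.61 (median 10.42) in CR mice. In C57BL6/J they ran from 10.92 to 11.89 (median 11.47) and from 11.29 to 11.67 (median 11.53), and in C3H/HeJ from 10.62 to 11.34 (median 11.26) and from 11.14 to 11.38 (median 11.22). The hybrid was below both parents without overlap, except that C3H/HeJ control replicate 4, at 10.62, fell within the range of the hybrid control mice. The difference from the mean of the parents was -0.87 ± 0.070 in control mice (-45.4%, 95% interval -50.4% to -39.9%, adjusted p = 4.2e-18). In CR mice it was -0.96 ± 0.070 (-48.8%, 95% interval -53.4% to -43.6%, adjusted p = 6.3e-21).

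Among the other inbred strains, control medians of Atp5md were 10.41 in 129S1/SvImJ, 10.66 in CBA/J and 10.68 in Balbc/J, overlapping the hybrid, and 11.39 in DBA/2J, overlapping the parents. The 3 probe sets of the gene gave -0.85 to -0.87 in control and -0.90 to -0.96 in CR mice. Over 15 alternatives of processing the difference in control mice lay between -0.91 and -0.84. Each array of the parents but 1 exceeded each array of the hybrid.

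Next by p in control mice was Ndufv1, the flavoprotein of complex I that takes electrons from NADH. The hybrid had signals from 9.89 to 10.24 (median 10.08) in control and from 9.93 to 10.16 (median 10.07) in CR mice, C57BL6/J from 10.19 to 10.56 (median 10.45) and from 10.27 to 10.42 (median 10.37), and C3H/HeJ from 10.02 to 10.36 (median 10.23) and from 10.14 to 10.36 (median 10.27). The hybrid lay lowest, with some overlap with C3H/HeJ in both diets and with C57BL6/J in control mice. The differences were -0.25 ± 0.036 (adjusted p = 1.6e-07) and -0.25 ± 0.036 (adjusted p = 3.4e-08).

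Atp5pb had unequal parents, and the hybrid lay below both and nearer to the lower one. Its control signals ran from 10.10 to 10.32 (median 10.24) in the hybrid, from 10.53 to 10.79 (median 10.69) in C57BL6/J and from 10.30 to 10.55 (median 10.38) in C3H/HeJ. The difference from the mean of the parents was -0.30 ± 0.045 in control and -0.31 ± 0.045 in CR mice (adjusted p = 2.7e-07 and 8.5e-08). Against C3H/HeJ alone it was -0.17 ± 0.052 in control mice, which passed, and -0.14 ± 0.052 in CR mice, which did not (adjusted p = 0.0771). The hybrid overlapped C3H/HeJ slightly and did not reach C57BL6/J. A further probe set gave -0.26 and -0.31.

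Uqcrc1, a core protein of complex III, had parents at like levels. Its control signals ran from 10.06 to 10.38 (median 10.15) in the hybrid, from 10.12 to 10.51 (median 10.40) in C57BL6/J and from 10.27 to 10.60 (median 10.40) in C3H/HeJ, and its CR signals from 10.04 to 10.29 (median 10.19), from 10.29 to 10.48 (median 10.42) and from 10.31 to 10.62 (median 10.45). In CR mice the hybrid lay below all arrays of both parents, and in control mice the ranges overlapped. The differences were -0.24 ± 0.036 and -0.26 ± 0.036 (adjusted p = 6.6e-07 and 1.7e-08).

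The catalytic head of the ATP synthase was lower as well. Atp5b, the beta subunit, differed by -0.13 in control and -0.16 in CR mice (-8.73% and -10.4%), Atp5a1, the alpha subunit, by -0.15 and -0.24, and Atp5c1, the gamma subunit that forms the rotating shaft, by -0.15 and -0.24. Atp5a1 had CR signals from 11.24 to 11.49 (median 11.35) in the hybrid, from 11.63 to 11.73 (median 11.69) in C57BL6/J and from 11.33 to 11.63 (median 11.52) in C3H/HeJ. The hybrid was clear of C57BL6/J and overlapped C3H/HeJ. Probe sets of 1 gene disagreed in places: those of Atp5h, the d subunit, gave -0.18, -0.065 and -0.017 in control mice.

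**Figure D5:**
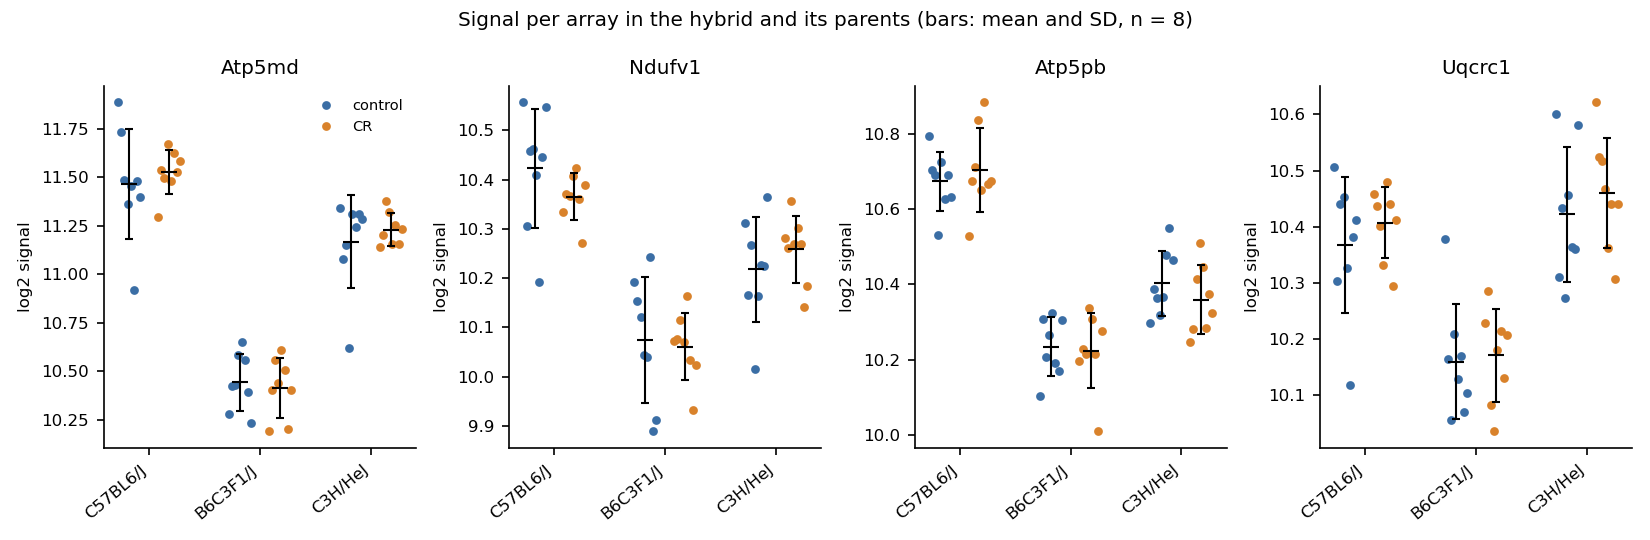
Log2 signal (y axis) of Atp5md, Ndufv1, Atp5pb and Uqcrc1 in each mouse of C57BL6/J, the hybrid B6C3F1/J and C3H/HeJ (x axis), blue for control and orange for CR, with the mean and SD of 8 mice. Hybrid means are lowest in each panel, and for Atp5pb the hybrid lies nearer to C3H/HeJ.

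The mean of a hybrid can lie below the mean of its parents and still above the lower parent, so each parent was also compared alone, a comparison added after values had been seen. The mean of the hybrid was below both parents for 51 of 93 genes in control and 61 in CR mice, counts given without a share over all genes. Both differences passed the test for 14 genes in control (background 2.54%) and 23 in CR mice (background 3.7%). The count of 14 was 9 when arrays were centred on genes of at least 9, and 9 after cyclic loess. Above both parents, 0 genes passed in control mice (background 1.38%) and 0 in CR mice (background 2.14%). The 12 genes below both parents in both diets were Ndufv1, Ndufs6, Ndufs8, Ndufa8, Ndufa10 and Ndufc1 of complex I, Uqcrc1, Uqcrc2 and Uqcr10 of complex III, Cox7b of complex IV and Atp5b and Atp5md of complex V.

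Ndufa1, Ndufb11 and Cox7b lie on the X chromosome. By the naming of such crosses C57BL6/J is the mother of B6C3F1/J, so that male hybrids carry its X chromosome and its mitochondrial DNA. Against C57BL6/J alone the hybrid differed by -0.39 ± 0.049 in control and -0.45 ± 0.049 in CR mice for Ndufb11, a membrane-arm subunit of complex I (adjusted p = 5.4e-10 and 7.6e-13). For Cox7b the differences were -0.17 ± 0.045 and -0.22 ± 0.045 (adjusted p = 0.00226 and 6.3e-05), and Ndufa1 did not pass (-0.036 and -0.087).

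The difference of the hybrid from its parents was further below 0 in CR than in control mice for 78 of 93 genes. No share over all genes is given for that count. The median change was -0.050, beside 4.4e-06 over all genes. That change was tested as CR minus control, a comparison added after values had been seen, and 0 genes passed (background 0%). In limma 8 of the 93 had an unadjusted p under 0.05, against 732 of all genes, and Uqcrh had the smallest p (-0.20, adjusted p = 0.996). Within the hybrid, the CR difference of Uqcrh was -0.19, and -0.14 without control replicate 8, rich in cerebellar genes. C57BL6/J CR mice had their ration lowered further than the other CR mice of this comparison, so against that parent ration and cross cannot be told apart in CR mice. The hybrid and C3H/HeJ were fed alike, and against C3H/HeJ alone the CR differences were -0.82 ± 0.080 for Atp5md (adjusted p = 1.0e-13) and -0.29 ± 0.042 for Uqcrc1 (adjusted p = 1.3e-07). In control mice the food was the same in all 3.

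Lists beside the 93 genes moved in the hybrid as well. Over all genes, 9.77% were lower than the mean of the parents in control and 10.5% in CR mice. Of 12 TCA cycle genes 9 were lower in control and 9 in CR mice, with Dld, the dihydrolipoamide dehydrogenase of several mitochondrial complexes, at -0.31 and -0.29. Cytosolic ribosomal proteins (20 and 28 of 55 lower) and proteasome subunits (19 and 23 of 39 lower) were taken as lists after results had been seen. Of 5 endothelium markers 3 were lower in control and 1 in CR mice, and of 6 astrocyte markers 1 in each diet. The median over the endothelium markers lay between -0.29 and 0.12 in hybrid control mice. In C57BL6/J control mice it lay between -0.082 and 0.36, and in C3H/HeJ control mice between -0.087 and 0.050. Over 4 striatum markers the group median was -0.58 in hybrid control and -0.39 in hybrid CR mice. It was 0.19 and 0.43 in C57BL6/J, and 0.083 and 0.60 in C3H/HeJ. Single arrays spread widely, from -2.00 to 0.76 in hybrid control and from -1.14 to 1.12 in hybrid CR mice. The part of these cells and of striatum in the result was not tested. Without the 2 arrays rich in cerebellar genes, 42 genes differed from the mean of the parents in control mice, all lower, and 54 in CR mice, 52 of them lower.

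The genes of the module varied together only loosely. Pearson r was computed over the 112 arrays on deviations from the group means, as a description, since arrays share processing and tissue makeup. Its median was 0.12 over the 4278 pairs of the 93 genes and -0.013 between them and all other genes. It was 0.17 for subunits of the same complex and 0.17 for subunits of different complexes. The most alike pairs were Cox6b1 and Uqcr11 (0.76), Atp5j2 and Ndufs8 (0.75), Atp5g1 and Ndufs8 (0.71) and Cox4i1 and Ndufa8 (0.70) across complexes, and Atp5h and Atp5pb (0.75) within the peripheral stalk. Most pairs of subunits cross complexes in any case (1852, beside 776 within the same complex). The isoforms, several of them dimmer than the median gene, had a median r of -0.080 with common subunits.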

How the data were processed

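Labelled cRNA from 112 cortices was hybridised to Affymetrix mouse gene arrays. The deposited values are log2 signals that the authors computed in Affymetrix Expression Console by RMA-Sketch at gene level (versions not stated). This gives all arrays the same distribution (array medians 7.14 to 7.26), so a shift shared by all genes cannot be seen. Levels of different probe sets were set side by side only as signal and not as amounts of mRNA, and the number of arrays limits the precision.

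Of 35556 probe sets, 21789 had exactly 1 gene symbol in the platform annotation, 1621 several and 12146 none. The 93 genes had 119 probe sets, with over 1 for 18 genes, and 6 probe sets that name such a gene beside another were left out. All 93 matched RefSeq by gene number. No low-signal filter was applied.

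Means of 14 groups were fitted to 19938 genes with limma 3.58.1 in R 4.3.3 (lmFit, eBayes, two-sided, 98 residual and 4.62 prior degrees of freedom), and a gene was called where its p, adjusted over all of them by Benjamini-Hochberg, was under 0.05. The tests were checked on simulated data. Promoters were searched with Python 3.11.15. Members, lists and comparisons were chosen with earlier results of these data known. Genes were named by rule: the called genes, or those of smallest p, up to 6 in each direction for CR and 6 for the hybrid in each diet, the smallest p in each strain, 3 for the interaction, the 12 largest strain ranges, 4 parental differences each way, and the isoforms and c subunits. Other names were chosen after values were seen. Labels name no batch. Mice of a group are separate animals.

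Alternatives were other normalizations and centrings, all probe sets or their mean, only genes at least as bright as the median gene, robust eBayes with trend, array weights, a replicate block, an array quality covariate, leaving out arrays or strains, a plain two-way analysis of variance, and the methods' t-test on linear signal at an unadjusted threshold of 0.01. Cyclic loess, centring on genes at 9 or above and leaving out single arrays were added after seeing the data.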

Additional observations from a re-analysis of the deposited data

Results flagged for a closer look

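Single arrays that stood apart from the other 7 of their group were sought in 294 groups, the 14 groups of mice for each of 15 genes and 6 medians over gene sets, by the gap to the nearest array over the range of the group (Dixon's test). This gave 27 cases, beside 14.7 that chance would give at 1 in 20.

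The array C57BL6/J control replicate 6, rich in cerebellar genes, was lowest in the median over all 93 genes (-0.037), over complex I (-0.017) and over complex III (-0.061). B6C3F1/J control replicate 8, the other such array, was highest in Uqcrh (10.5) and Ndufs5 (8.54), and DBA/2J control replicate 8 was lowest in the medians of complex I (-0.058) and complex IV (-0.066). The part of the tissue in these values was not tested.

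C3H/HeJ CR replicate 7 was lowest in Ndufb10 (7.23) and in the medians over all genes (-0.064), complex IV (-0.11) and complex V (-0.12). B6C3F1/J CR replicate 7 was lowest in Atp5pb (10.01) and in the median of complex IV (-0.27). The array DBA/2J CR replicate 2 was highest in Sdhd (9.79) and in the median of complex II (0.087). In 129S1/SvImJ, control replicate 1 was highest in Uqcr11 (9.77) and in the median of complex IV (-0.12), and CR replicate 3 in Atp5pb (10.2).

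The remaining cases concerned 1 gene each. Uqcrb was highest in Balbc/J control replicate 8 (11.3) and lowest in B6C3F1/J control replicate 1 (10.6), and Atp5md was lowest in C3H/HeJ control replicate 4 (10.6). The complex III genes Uqcrh and Uqcr11 were highest in C57BL6/J CR replicates 1 (10.4) and 4 (9.75), and Uqcr11 also in DBA/2J control replicate 3 (10.1). Low values were those of Atp5pb in CBA/J control replicate 1 (9.99), Atp5e in DBA/2J control replicate 1 (7.61) and Cox5b in DBA/2J CR replicate 5 (12.05).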

How the results depend on the processing

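The count of genes called for CR across strains (3) was the least stable. It was 7 without the 2 or the 4 arrays rich in cerebellar genes, 5 over genes at or above the median gene, 8 with array weights, 0 without 129S1/SvImJ or DBA/2J, 1 without CBA/J or the hybrid, 5 without C3H/HeJ, and 2 to 5 on leaving out either of 2 single arrays. Within strains (0) the count was 1 without those 2 or 4 arrays or without C57BL6/J control replicate 6 (Ndufa3 in C57BL6/J), 1 after quantile normalization (Ndufb6 in Balbc/J), 3 with array weights, and 19 by the methods' t-test at its unadjusted threshold. The count of genes below both parents in control mice (14) was 9 with centring on genes at 9 or above and 9 with cyclic loess. The causes were not tested. No called result changed direction. The CR differences across strains of 4 genes that were near 0 and not called did: Cox6b2 (-0.00044) was 0.010 and 0.0077 without the 2 and the 4 arrays, 0.0055 with array weights, 0.019 with the array quality covariate, 0.0024, 0.0061, 0.0026 and 0.0058 without DBA/2J, 129S1/SvImJ, C3H/HeJ and CBA/J, and 0.0036 to 0.0063 without either single array. Atp5g3 (-0.0012) was 0.0015 without the 2 arrays, 0.0013, 0.0033 and 0.017 without 129S1/SvImJ, DBA/2J and the hybrid, and -0.0020 to 0.0023 without either single array. Cox8b (0.012) was -0.00081 with array weights and -0.014 without C57BL6/J, and Cox8c (0.013) was -0.0031 without C57BL6/J. The median CR difference of the 93 genes, -0.00044, was 0.0015 after quantile normalization. Uqcrb, Sdhaf1 and Uqcrh passed in 19, 18 and 16 of 23 alternatives.

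The genes lower in 129S1/SvImJ were 48 to 68 in every alternative run, with a median as small as -0.13 in control and -0.095 in CR mice. Replicate numbers paired no mice by the labels: deviations of mice with the same number had correlations between -0.48 and 0.37 over 56 pairs (median 0.14, 31 above 0.1), with medians by strain of 0.019 to 0.20 beside -0.031 to 0.031 for other numbers, and 12 arrays correlated best with their own number. A fit with the replicate block gave 3 genes for CR across strains, 0 within strains, 0 for the interaction, 37 and 54 for the hybrid in control and CR mice and 72 and 66 for 129S1/SvImJ.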

Other observations

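Gene lists beside the 93 genes give a wider view of mitochondria. For CR across strains, Idh3a, the catalytic subunit of the NAD-dependent isocitrate dehydrogenase, rose by 0.066 (adjusted p = 0.0362) and Ttc19, a factor of complex III assembly, by 0.074 (adjusted p = 0.0376), both in limma. In the hybrid, 6 of 11 genes for mitochondrial carriers and pores were lower than the mean of the parents in each diet, among them Vdac1, the main pore of the outer membrane (-0.22 and -0.24), and Slc25a4, an exchanger of ADP and ATP (-0.19 and -0.21). Of 9 genes for ubiquinone synthesis 4 were lower in each diet, and of 29 assembly factors outside the 93 genes 13 were lower in control and 12 in CR mice. The share of all genes that were lower was 9.77% in control and 10.5% in CR mice.

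Regulators of mitochondrial genes did not share a direction. Of 12 such genes, 4 were lower (background 9.77%) and 3 higher (background 6.39%) in hybrid control mice. Ppargc1b, a coactivator of mitochondrial biogenesis, was higher by 0.24 in control and 0.21 in CR mice. In 129S1/SvImJ its relative Ppargc1a was higher than in the other strains, by 0.33 and 0.29. There, 7 of the 12 genes were lower in each diet (background 23.2% in control and 20.3% in CR mice).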
